A study of Komagataella phaffii with 102 samples.

Results

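The methanol response of strain Y-48124 of Komagataella phaffii (Pichia pastoris) was measured by comparing its 3 methanol libraries (replicates A, B and C) with its 3 libraries from 48 h glycerol (replicates A, B and D). These 6 libraries belong to an RNA-Seq study of 11 strains with 38 libraries of methanol, 28 of 48 h glycerol and 36 of 24 h glycerol in all, and they were chosen by their strain and condition labels alone. Cells were grown in 24-well plates for 24 h in complex medium with 4% glycerol, then pelleted and moved for a further 24 h either to fresh glycerol medium (48 h glycerol) or to medium with 1.5% methanol (methanol). The 3 Y-48124 libraries taken at the end of the first phase (24 h glycerol) serve as a second reference. Y-48124 is the culture collection's deposit of X-33, a commercial strain of the lineage of the histidine auxotroph GS115, which in turn was obtained from Y-11430 by nitrosoguanidine mutagenesis. In both groups compared it therefore carries the mutations it shares with GS115. In HIS4, the gene of histidine synthesis, it has the same substitution as X-33, which differs from that of GS115. This substitution leaves growth without histidine slowed. Y-48124 also carries a missense variant in RCR2, which X-33 has and GS115 lacks. The 2 strains are not identical, since X-33 holds further variants that Y-48124 lacks, among them a missense variant in RVB1. The files do not say which libraries came from separate cultures, so p-values measure the spread between these libraries, which may be partly technical.

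Methylotrophic yeasts oxidize methanol to formaldehyde with alcohol oxidase inside peroxisomes, and dihydroxyacetone synthase joins the formaldehyde to xylulose 5-phosphate to make the building blocks of biomass. The genes of this pathway are known to be repressed by glycerol and to reach very high transcript levels in methanol, which is why their promoters are used to drive recombinant proteins. The files give each gene only an identifier of the strain's annotation (GQ67 followed by a number) and pair none of them with a symbol, so members of this pathway cannot be named. A symbol is given only to 13 genes, for which the study prints one beside the identifier or states a variant whose position falls in the coding sequence.

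Read totals over the 6 libraries ranged from 1487529 to 3612141. Replicate D of 48 h glycerol was the shallowest. It also stood apart by its content. Of the 7 measured genes on the linear plasmid contig, 3 had counts in it, 43 in all, which is 28.9 CPM (counts scaled to a common library total of 1000000; 95% Wilson interval 21.5 to 38.9, counting error only). The other 8 Y-48124 libraries together held 5 such counts, and none of them exceeded 1.03 CPM. GS115 libraries ranged from 10.2 to 27.6 CPM and Y-11430 libraries from 30.6 to 141 CPM, whereas no X-33 library exceeded 1.84 CPM. Replicate D thus went against its strain label on this measure, and the counts of genes called are given with and without it.

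**Figure D1:**
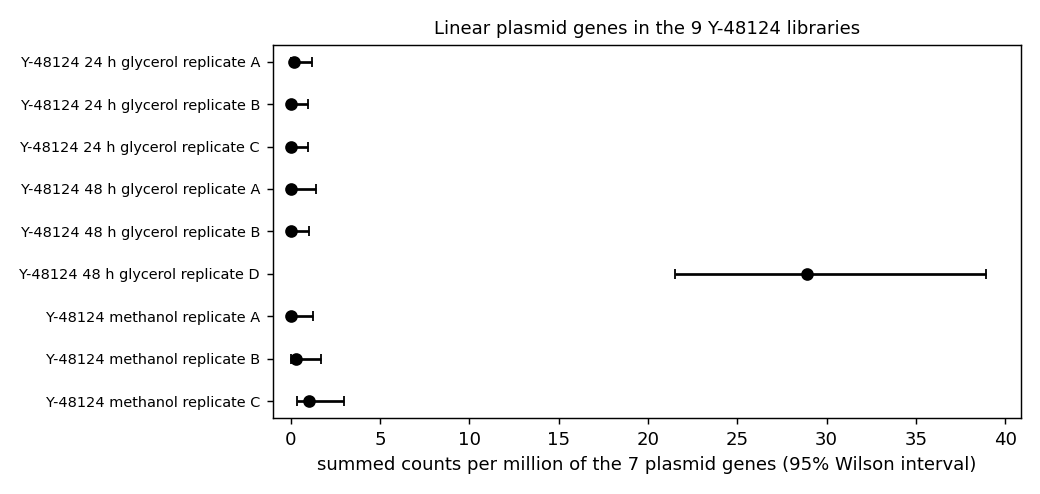
Summed level of the 7 linear plasmid genes in CPM (horizontal axis) in each of the 9 Y-48124 libraries, with 95% Wilson intervals as bars. The 48 h glycerol replicate D lies at 28.9, and the other 8 libraries lie between 0 and 1.03.

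The replicates of a group also differed among themselves. Each library was described by its deviations from the median library of its condition over 4703 genes, and these were correlated with those of the other libraries of that condition (a description across genes, which are not independent). Methanol replicates A and B were alike (r = 0.80), and each was a little nearer to the library of its own letter in another strain (A to Y-12729 A, r = 0.87, and B to Y-48123 B, r = 0.88), but replicate C had r = -0.24 with A and -0.26 with B. The nearest library to methanol C was methanol replicate C of strain Y-48123 (r = 0.78). In 48 h glycerol, replicate A was nearest to replicate A of strain Y-12729 (r = 0.77), had r = -0.05 with its own replicate B and -0.21 with D. Replicate B was nearest to Y-11430 replicate C (r = 0.65), and D to GS115 replicate B (r = 0.40). Of the 6 libraries, methanol C and 48 h glycerol A had the highest shares of TPM (transcripts scaled to a total of 1000000 after division by length) that the listed genes do not account for, 39.1% and 38.9%. Methanol A, which was like B, was close to them at 35.9%, and 48 h glycerol D had 14.9%. The part of these library differences in the results below was not tested beyond leaving the libraries out.

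Of 4942 genes tested, 213 rose and 246 fell in methanol relative to 48 h glycerol (edgeR quasi-likelihood test, Benjamini-Hochberg adjusted p under 0.05 and at least a 2-fold change). The called genes made up 9.29% of those tested, 4.31% higher and 4.98% lower. Changes among the higher genes were the larger. At least an 8-fold change was reached by 48 genes that rose and 26 that fell, and a 64-fold change by 11 and 2. The 3 methanol libraries lay wholly above or below the 3 of glycerol for 1731 of the 4942 genes tested (15.9% above, 19.2% below), and for 211 of the 213 rises and all 246 falls.

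With 48 h glycerol replicate D left out, 53 genes rose (1.07% of 4966 tested) and 99 fell (1.99%), 3.06% together, and 147 of the 459 genes were still called. All 459 kept their direction, and their log2 fold changes moved by a median of 0.10 and by at most 0.55. In a fit over all libraries of the series, which estimates the spread from every group, 1003 genes were called with replicate D (19.7% of 5087 tested) and 1056 without it (20.8%), and the latter held 449 of the 459. Leaving out 48 h glycerol A or B instead gave 252 or 24 calls in the fit of the remaining 5 libraries, and leaving out methanol A or B gave 237 or 67. The fold changes of these genes thus moved little without replicate D. These genes were called with D in the fit, however, so their constant direction and small shift are partly set by that choice. Some genes outside the list moved more and are given below. The number of calls fell in the smaller fit and not in the larger.

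The gene with the highest count level among the rises was GQ67_05214 (chromosome 4, 1583138 to 1585129, minus strand, coordinates of the authors' Y-11430 assembly here and below). It had 47501, 41749 and 18334 CPM in methanol A, B and C and 65.2, 285 and 195 CPM in 48 h glycerol A, B and D. The groups were far apart, with methanol C the lowest of its group. Its log2 fold change was 7.64 (SE 0.81, edgeR adjusted p = 0.00418), and 7.66 without replicate D (adjusted p = 0.0269).

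GQ67_03943 and GQ67_03941, also among the largest rises, lie on chromosome 3. Their places are 1628284 to 1630407 on the plus strand and 1623672 to 1625795 on the minus strand. Both have a coding length of 2121 bases, and whether reads were shared between them was not tested. GQ67_03943 had 51080, 34295 and 1117 CPM in methanol against 107, 252 and 146 CPM in 48 h glycerol. GQ67_03941 had 24922, 18396 and 939 CPM against 170, 252 and 165 CPM. Both were thus high in methanol A and B, and in methanol C they lay closer to glycerol than to the other 2 methanol libraries, though still above every glycerol library. Log2 fold changes were 7.38 (SE 1.34, edgeR adjusted p = 0.0183) and 6.20 (SE 1.11, adjusted p = 0.0180). Neither passed without replicate D (adjusted p = 0.0703 and 0.0698), and both did without methanol C (log2 7.88 and 6.68, adjusted p = 0.000406 for each).

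The largest fitted change was that of GQ67_01599 (chromosome 1, 2417932 to 2419594), with 5117, 3066 and 60.3 CPM in methanol against 5.13, 5.54 and 3.36 CPM in 48 h glycerol. Its log2 fold change was 9.11 (SE 1.53, edgeR adjusted p = 0.0146; 0.0622 without replicate D). This gene overlaps GQ67_01598 on the other strand by 624 bases, and the sources used here do not state whether counting used strand, so reads of the overlapping stretch cannot be assigned. GQ67_02922 had 155, 111 and 22.6 CPM in methanol and a total of 2 counts over the 3 glycerol libraries, against 913 counts in methanol. The ratio of the pooled levels was 382.2 (exact counting interval 105.5 to 3160.9), and the gene passed with and without replicate D (edgeR adjusted p = 0.00787 and 0.0277).

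Methanol C was lowest of its group for 10 of the 12 largest rises. The mean of A and B exceeded C by 2.43-fold for GQ67_05214 and by 67.8-fold for GQ67_01599, with 39.8-fold for GQ67_02903 and 26.1-fold for GQ67_04205. Together the 12 genes took 15.2%, 11.4% and 2.36% of the counts in methanol A, B and C, and 0.0453% to 0.102% in 48 h glycerol. The 2 exceptions were highest in methanol C. GQ67_03357 had 129, 90.9 and 1140 CPM in methanol against 1.10, 4.98 and 2.69 CPM in glycerol, and its log2 fold change of 7.39 became 5.03 without C. GQ67_02654, named YDL218W after a gene of Saccharomyces cerevisiae, had 181, 174 and 392 CPM against 0.37, 6.09 and 4.03 CPM (log2 6.22, SE 0.81, edgeR adjusted p = 0.00895, and 0.0327 without replicate D).

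**Figure D2:**
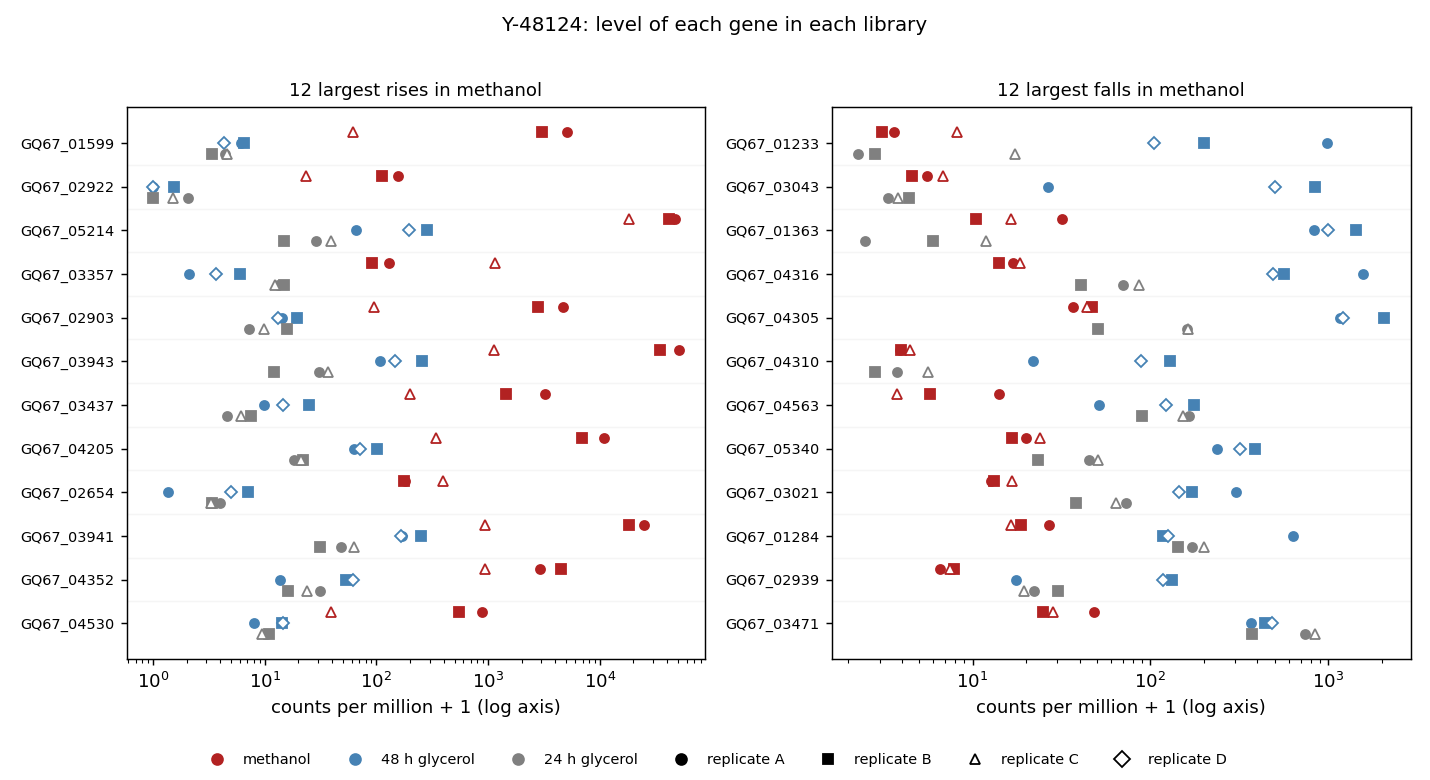
Level of the 12 largest rises (left) and 12 largest falls (right) in each of the 9 Y-48124 libraries, as CPM plus 1 on a log axis, with colour for the condition and marker shape for the replicate. Methanol replicate C (open triangles) is the lowest methanol library for 10 of the 12 rises and the highest for 6 of the 12 falls.

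Over all 213 rises methanol C was below both A and B for 101 genes and above both for 80. It was at least 4-fold below the mean of A and B for 23 rises and at least 4-fold above it for 5. Of all 4942 genes tested, 226 and 70 did so. Over the 246 falls methanol C was below both A and B for 192 genes and above both for 29, and over all genes tested for 2807 and 1388. Glycerol D differed by 4-fold or more from the mean of glycerol A and B for none of the rises, and for 12 (below) and 55 (above) of all genes tested. Being called depends on these same libraries, so the counts over rises and falls are descriptions. Leaving out methanol C gave 209 rises (4.2% of 4971 tested) and 317 falls (6.38%), 10.6% together.

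**Figure D3:**
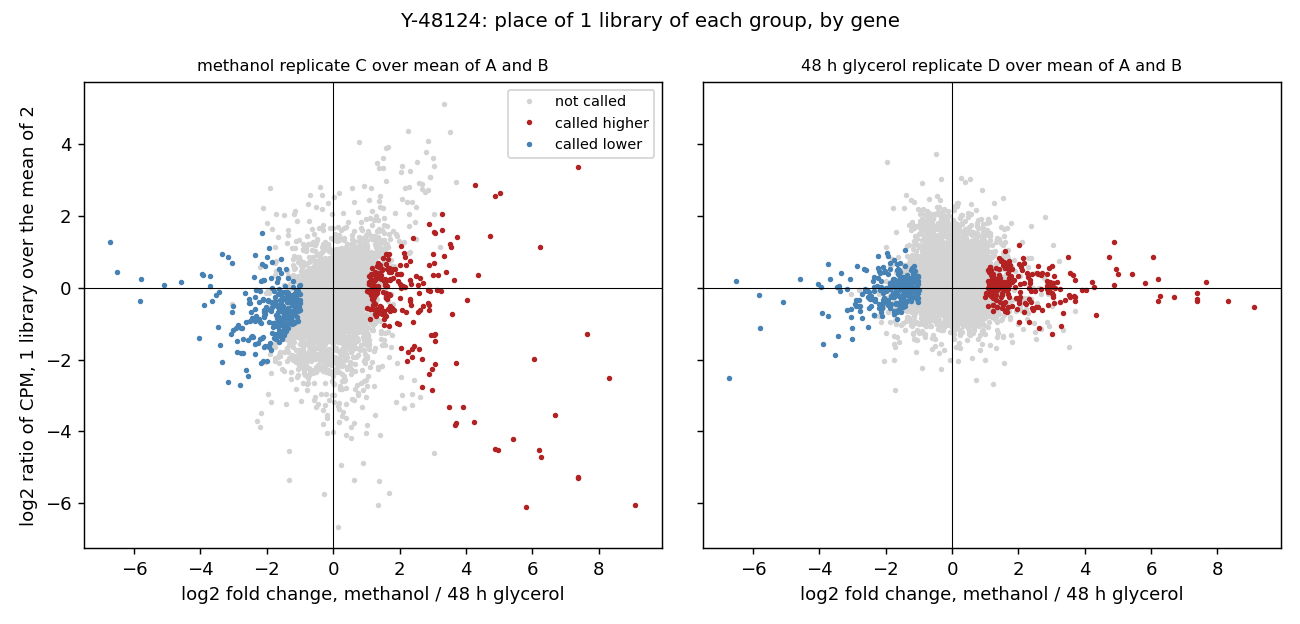
Log2 ratio of CPM of methanol replicate C (left) and 48 h glycerol replicate D (right) to the mean of replicates A and B of the same group (vertical axes) against the log2 fold change between methanol and 48 h glycerol (horizontal axes), with a point for each gene. Of the 213 called rises, 23 lie at or below -2 on the left and 0 on the right. Of all 4942 genes tested, 226 and 12 do.

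The genes that fell most were more even across the methanol libraries. GQ67_04305 (chromosome 4, 6884 to 12818) had 35.6, 46.0 and 43.2 CPM in methanol against 1160, 2064 and 1216 CPM in 48 h glycerol. Its log2 fold change was -5.11 (SE 0.43, edgeR adjusted p = 0.00359) and -5.26 without replicate D (adjusted p = 0.0131). GQ67_05340 (chromosome 4, 1721513 to 1722076) had 18.9, 15.7 and 23.0 CPM against 236, 389 and 317 CPM, and fell by 3.96 on the log2 scale (SE 0.36, adjusted p = 0.00359). In neither gene did the groups come close, and no library stood out.

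GQ67_01363 (chromosome 1, 2855728 to 2857469) had 31.0, 9.51 and 15.4 CPM in methanol and 827, 1439 and 992 CPM in 48 h glycerol, and fell by 5.81 on the log2 scale (SE 0.58, edgeR adjusted p = 0.00392). GQ67_03471 (chromosome 3, 800914 to 802932) had 47.0, 23.8 and 27.4 CPM against 367, 443 and 482 CPM, and fell by 3.66 (SE 0.36, adjusted p = 0.00392). Both were still called without replicate D, as were 10 of the 12 largest falls and 4 of the 12 largest rises. The falls that lost their call were GQ67_03043 and GQ67_02939, and the rises were GQ67_01599, GQ67_03357, GQ67_02903, GQ67_03943, GQ67_03437, GQ67_04205, GQ67_03941 and GQ67_04530 (edgeR adjusted p = 0.0535 to 0.0704 without D). In the fit over all libraries all 24 were called, with replicate D and without it. That fit takes its spread from every group of the series. Its common biological coefficient of variation was 0.238, against 0.368 in the fit of 6 libraries.

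The 48 h glycerol libraries disagreed for several of the falls. GQ67_01233 had 981 CPM in glycerol A against 200 and 104 CPM in B and D, with 2.61, 2.08 and 7.20 CPM in methanol. GQ67_03043 had 25.7 CPM in glycerol A but 842 and 499 CPM in B and D, with 4.57, 3.56 and 5.83 CPM in methanol. The log2 fold changes were -6.71 (SE 1.11, edgeR adjusted p = 0.0141) and -6.52 (SE 1.18, adjusted p = 0.0183). Without replicate D they were -7.19 (adjusted p = 0.0248) and -6.49 (adjusted p = 0.0535), so that only GQ67_01233 of the pair was still called. Here the single library that differed was replicate A, and D lay nearer to B. GQ67_01284 (630, 117 and 125 CPM in glycerol, 25.8, 17.8 and 15.4 in methanol) overlaps a gene on the other strand by 1030 bases, and GQ67_04563 (50.2, 174 and 122 CPM in glycerol, 13.1, 4.75 and 2.74 in methanol) does by 738 bases.

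GQ67_05224, named PDR12 after the S. cerevisiae exporter of weak organic acids, was among the most strongly counted genes of 48 h glycerol. It had 21172, 17963 and 12747 CPM there against 1324, 1520 and 2600 CPM in methanol, and fell by 3.18 on the log2 scale (SE 0.54, edgeR adjusted p = 0.0146; -3.39 and 0.0381 without replicate D). At 24 h glycerol it had 763, 711 and 1257 CPM. The log2 difference from 24 h glycerol was 1.27 for methanol (adjusted p = 0.0872) and 4.47 for 48 h glycerol (adjusted p = 0.00196).

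The other 11 genes with a symbol were not called in the fit of 6 libraries. HIS4 came nearest with 243, 208 and 118 CPM in methanol and 302, 702 and 697 CPM in 48 h glycerol (log2 -1.55, SE 0.40, edgeR adjusted p = 0.0511). The groups did not overlap, and glycerol A lay well below B and D. CTR1, a copper transporter, had 673, 693 and 575 CPM against 1526, 1673 and 1035 CPM (log2 -1.10, adjusted p = 0.0857). Without replicate D the adjusted p was 0.112 for HIS4 and 0.0858 for CTR1, but both were called lower in a fit with the libraries of 3 related strains (log2 -1.61 and -1.16, edgeR adjusted p = 0.000237 and 0.00160), and by DESeq2. The transcription factor gene SEF1 had a log2 fold change of -0.91 (adjusted p = 0.101), and the chromatin remodelling ATPase gene RVB1 one of -0.64 (adjusted p = 0.194). For FRE1, a metal reductase gene, and FLO11-BSC1, a cell surface gene, the values were -0.09 and -0.52, and for NIT1 and ZPS1 they were 0.96 and 0.99. SMC3, of the cohesin complex, and RSF2 were at -0.31 and 0.48. YFL040W, which belongs to a transporter family in S. cerevisiae, was at -0.76 with 31.0, 87.3 and 304 CPM against 7.70, 474 and 327 CPM, so that its libraries overlapped.

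Levels of different genes were compared per length, as TPM. GQ67_04060 had the highest mean in methanol, 21528 TPM, followed by GQ67_05214 with 17595, GQ67_03943 with 13344 and GQ67_05002 with 10640 TPM. In 48 h glycerol the leading genes were GQ67_04758 with a mean of 12368 and GQ67_01556 with 11613 TPM, and neither was called between the conditions in the fit of 6 libraries (log2 -1.03 and -1.43, edgeR adjusted p = 0.125 and 0.0726), though both were called lower in methanol in the fit with 3 related strains (adjusted p = 0.00181 and 0.000827). GQ67_04060 was itself abundant in 48 h glycerol, at 5001 TPM, and its log2 fold change was 2.20 (SE 0.44, edgeR adjusted p = 0.0228; 0.0900 without replicate D). Of the TPM of the listed genes alone, the 10 most abundant genes held 18.8%, 16.3% and 14.2% in methanol A, B and C. The values were 11.3%, 12.3% and 10.9% in 48 h glycerol A, B and D. These ranges do not overlap, and 3 libraries against 3 cannot give an exact permutation p below 0.1. Unlisted TPM was 35.9%, 19% and 39.1% of the total in methanol and 38.9%, 19.7% and 14.9% in 48 h glycerol. As a share of all TPM, methanol C would lie below 48 h glycerol B and D. The separation thus holds for the listed genes only.

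The 24 h glycerol libraries gave a second view of the same methanol libraries. Their replicates also differed, by the same correlation of deviations. Replicates A and C were alike (r = 0.65), but B had r = 0.17 with A and 0.01 with C. Its nearest library was 24 h glycerol replicate B of strain YB-4290 (r = 0.58). Against 24 h glycerol, 880 genes rose (17.6%) and 758 fell (15.2%) in methanol (32.8% of 4988 tested, in a fit of the 9 Y-48124 libraries). From 24 h to 48 h in glycerol, 608 rose (12.2%) and 367 fell (7.36%), 19.5% together. This second count was 1297 without 48 h glycerol D and 460 or 360 without A or B. It was 458, 785 or 617 without 24 h glycerol A, B or C. The 3 comparisons share libraries, so their values are set side by side only. For GQ67_05214, the level at 24 h glycerol was 27.7, 13.8 and 38.3 CPM, and its log2 difference was 10.56 for methanol (adjusted p = 0.000143) and 2.93 for 48 h glycerol (adjusted p = 0.0188), both against 24 h. GQ67_04060 was at 169, 101 and 175 CPM at 24 h, with log2 differences of 7.54 (adjusted p = 8.71e-05) and 5.36 (adjusted p = 0.000703). This gene was thus far above its early glycerol level in both later conditions.

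Some of the genes that fell were low at 24 h as well. GQ67_01363 had 1.49, 4.96 and 11.0 CPM at 24 h glycerol, and the difference between 48 h and 24 h was 7.78 on the log2 scale (adjusted p = 0.000703). GQ67_04305 had 161, 49.9 and 162 CPM at 24 h (48 h against 24 h 3.74, adjusted p = 0.00312; methanol against 24 h -1.39, adjusted p = 0.0601). GQ67_03471 and GQ67_04563 differed from these. GQ67_03471 was already high at 24 h, with 743, 370 and 847 CPM, and the log2 difference from 24 h glycerol was -4.12 for methanol (adjusted p = 0.000415), with -0.44 for 48 h against 24 h (adjusted p = 0.466).

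Called genes were spread over the 4 chromosomes, with rises making up 3.89% to 4.62% of the genes tested on each and falls 4.60% to 5.54%. Distance to a chromosome end was taken from the first base on the left and from the last annotated feature on the right. In the zone at 25 to 50 kb, 11 of 76 genes fell (14.5%) and 5 rose (6.58%), and nearer than 25 kb 2 of 60 fell and 3 rose. GQ67_04310 and GQ67_04316, at 26713 to 31023 and 48711 to 50231 on chromosome 4, had log2 fold changes of -4.59 and -5.78 (edgeR adjusted p = 0.00992 and 0.00542), and GQ67_03021, at 28911 to 29642 on chromosome 3, had -3.91 (adjusted p = 0.00442). Of genes with 2 or more exons, 2.54% rose and 2.12% fell, against 4.40% and 5.12% of those with 1 exon. These shares are descriptions, and no test was made of them.

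Of the 4777 pairs of neighbouring tested genes, 23 were both higher, 21 both lower and 15 changed in opposite directions. A higher gene had a higher neighbour in 16.1% of its divergent pairs, 10.5% of its tandem pairs and 7.08% of its convergent pairs. These shares rest on 10, 9 and 4 pairs, and 4.31% of all tested genes were higher. Without replicate D, 1 pair was both higher and 4 both lower. The shares were then 0% of divergent, 4.88% of tandem and 0% of convergent pairs, with 1.07% of all tested genes higher. No test was made of these shares. The longest runs held 4 rises each. GQ67_04205 to GQ67_04208 lie at 2079914 to 2084095 on chromosome 3. GQ67_04205 had 10981, 6896 and 342 CPM in methanol against 61.9, 101 and 69.9 CPM in 48 h glycerol. GQ67_04208 had 90.4, 75.2 and 106 CPM against 5.13, 5.26 and 2.69 CPM (log2 4.35, SE 0.39, edgeR adjusted p = 0.00359) and 0 counts in every 24 h library, where 3 counts would be 0.639 to 0.784 CPM. GQ67_04205, GQ67_04206 and GQ67_04207 were not called without replicate D (adjusted p = 0.0704, 0.0815 and 0.0714). Methanol C was near A and B for GQ67_04208 and far below them for GQ67_04205 at the other end of the run.

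The other run of 4, GQ67_03384 to GQ67_03387 (chromosome 3, 655076 to 659516), ranged from 9.79 to 123 CPM in methanol and from 0.37 to 49.1 CPM in 48 h glycerol, with GQ67_03384 the highest of the 4 throughout. GQ67_03384 and GQ67_03385 were not called without replicate D (edgeR adjusted p = 0.102 and 0.0978). GQ67_03386 had 14.0, 33.6 and 25.4 CPM in methanol against 3.67, 3.88 and 5.38 CPM in 48 h glycerol (log2 2.56, SE 0.41, edgeR adjusted p = 0.0128), and it overlaps GQ67_03387 by 37 bases on the same strand. PDR12 lay in a run of 3 falls, with GQ67_05223 at -1.14 (adjusted p = 0.0384, and 0.0919 without replicate D) and GQ67_05225 at -1.31 on the log2 scale (adjusted p = 0.0165). GQ67_02712, the fifth most abundant gene of 48 h glycerol by TPM, lay in another, beside GQ67_02711 and GQ67_02713. It had 1744, 959 and 275 CPM in methanol and 4286, 8169 and 5855 CPM in 48 h glycerol (log2 -2.62, adjusted p = 0.0428, and 0.0900 without replicate D), and it overlaps GQ67_02713 by 537 bases on the other strand.

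A few genes were decided by replicate D. GQ67_00470 had 281, 273 and 126 CPM in methanol and 34.8 and 52.6 CPM in glycerol A and B, but 297 CPM in D. Its log2 fold change was 0.90 with D (edgeR adjusted p = 0.447) and 2.34 without it (adjusted p = 0.0372). GQ67_00632 went from 0.73 to 1.77 (adjusted p = 0.0378 without D) and GQ67_03037 from 1.53 to 3.31 (adjusted p = 0.0468 without D). In all 3 genes glycerol D lay with or above the methanol libraries.

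**Figure D4:**
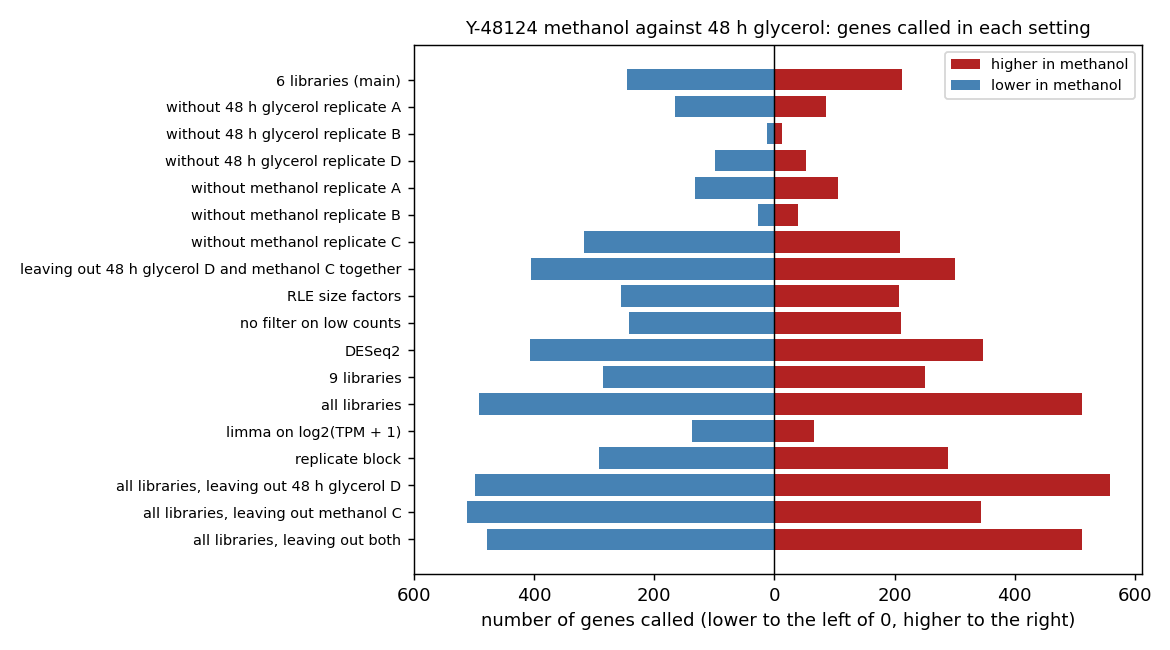
Number of genes called higher (right of 0) and lower (left of 0) in methanol than in 48 h glycerol in Y-48124 (horizontal axis) under each setting (rows), without error bars since each is a count. The main fit gave 213 and 246, the fit without 48 h glycerol replicate B 12 and 12, and the fit over all libraries without replicate D 558 and 498.

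The methanol response of Y-48124 was compared with those of the related strains in a fit of their methanol and 48 h glycerol libraries. In it 981 genes were called for Y-48124 (19.4% of 5045 tested), 1997 for X-33 (39.6%), 800 for GS115 (15.9%) and 954 for Y-11430 (18.9%). The response differed between Y-48124 and Y-11430 for 0 genes by edgeR and 0 by DESeq2, with 426 genes at an unadjusted p under 0.05, and for 3 genes when methanol A of Y-48124 was left out. Between Y-48124 and GS115 it differed for 213 genes (4.22%), of which 98 responded more positively in Y-48124 (1.94%) and the rest less so (2.28%), and between Y-48124 and X-33, of which it is a deposit, for 460 (9.12%), 203 of them higher (4.02%) and 257 lower (5.09%) in Y-48124.

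Both counts moved with single libraries. Without 48 h glycerol replicate D they were 143 for GS115 and 565 for X-33. Without Y-48124 methanol C they were 113 and 1123. For GS115, whose 48 h glycerol group holds 2 libraries, 15 or 27 genes were left without one or the other, 35, 29 or 539 without methanol A, B or C of GS115, and 372 without methanol A of Y-48124. For X-33 the count was 147, 124 or 972 without its methanol A, B or C, 245 without its 48 h glycerol A or B, and 191 or 249 without methanol A or B of Y-48124. X-33 methanol C held 70901 counts, and it stood apart from the other 2: GQ67_05214 was at 48335 CPM in it and at 3066 and 2832 CPM in A and B.

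Among the largest differences from GS115 was that of GQ67_04305. In GS115 it had 1625, 1516 and 411 CPM in methanol and 1471 and 1450 CPM in 48 h glycerol, so that its own log2 change was -0.62 against -5.17 for Y-48124 in this fit. The difference of -4.55 (SE 0.52, edgeR adjusted p = 2.77e-05) was called when any of the 11 libraries of the 2 strains was left out (-4.96 to -4.22). GQ67_01284 had a difference of -5.65 (SE 0.94, adjusted p = 0.00256) that was also called in all 11 cases. GQ67_04563, at -5.67 (adjusted p = 0.0126), was called in 9 of the 11.

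Against X-33, YFL040W gave the largest difference. It had 847, 1054 and 42.3 CPM in X-33 methanol and 2.48, 2.28 and 3.55 CPM in X-33 48 h glycerol. The 42.3 CPM in X-33 methanol C is the level of 3 counts in that library. The difference of -9.13 (SE 1.52, edgeR adjusted p = 0.00137) was called when any of the 12 libraries of the 2 strains was left out (-10.60 to -8.36). The Y-48124 48 h glycerol A library, at 7.70 CPM, was the one near the X-33 level, and B and D were at 474 and 327 CPM. FLO11-BSC1 differed by -2.58 (SE 0.68, adjusted p = 0.0218), from own changes of -0.58 in Y-48124 and 2.00 in X-33, and was called in 9 of 12 cases.

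**Figure D5:**
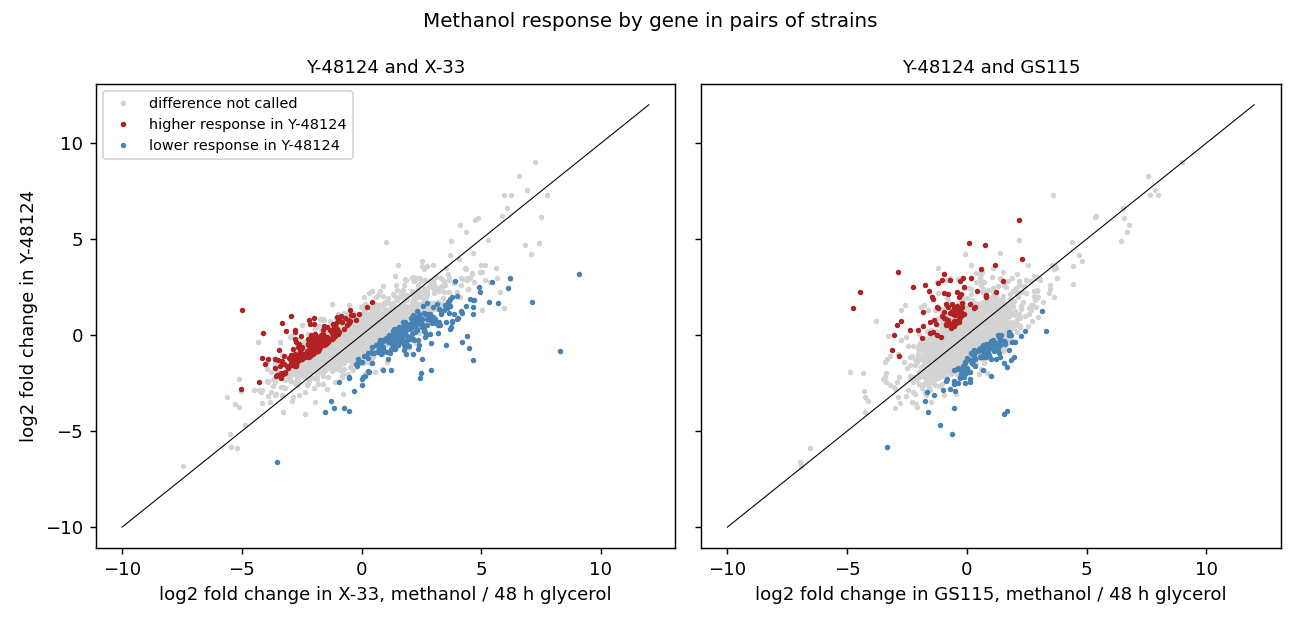
Log2 fold change between methanol and 48 h glycerol in Y-48124 (vertical axis) against that in X-33 (left) and GS115 (right). Points are the genes tested both in this fit and in the fit of 6 libraries, with genes whose responses differed in colour and the line of equal change. Coloured points number 203 above and 257 below for X-33, and 98 above for GS115.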

How the data were processed

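RNA libraries were prepared with the KAPA HyperPrep kit, sequenced to 40-nt reads and quantified by the authors with STAR 2.5.3a and RSEM 1.3.0 against the annotation of the Y-11430 assembly. The authors deposited expected counts from RSEM, already rounded to whole numbers, and log2(TPM + 1) values for 5116 genes in all libraries of the series. Another 51 annotated features have no values. The deposited annotation file gave positions and coding lengths, and 0 of the 5040 RefSeq genes matched an identifier.

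Counts were tested with edgeR 4.0.16 (R 4.3.3, TMM, filterByExpr, robust quasi-likelihood F test, two-sided), with 4 residual degrees of freedom and a common biological coefficient of variation of 0.368 in the fit of 6 libraries. Genes were called at a Benjamini-Hochberg adjusted p under 0.05 with at least a 2-fold change either way. The 24 h comparisons used 9 Y-48124 libraries, and differences between strains used interaction contrasts in a fit of Y-48124, X-33, GS115 and Y-11430. DESeq2 1.42.0, limma 3.58.1 on log2(TPM + 1), other scalings and filters, and leaving out libraries were alternatives. The 3 fits over all libraries that leave out Y-48124 libraries were chosen after seeing the data. On simulated counts with 200 genes changed 4-fold in the main comparison, 90.5% were called, and 8 unchanged genes were called as well. The simulated libraries of a group shared the same expected profile. They lacked the library-wide differences described above, so this rate does not carry over to the real libraries.

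Named genes were the 12 largest rises and falls among called genes whose groups did not overlap and whose higher mean was at least 50 CPM, the 5 most abundant genes per condition by TPM, genes with a symbol, the 3 highest and lowest strain differences, the longest runs, and the 3 genes moved most by replicate D. The shorter runs and the genes set beside others as examples were chosen after their values were seen. HIS4, SMC3, SEF1, RVB1 and RSF2 were placed by variant position. Members and lists were chosen with earlier results of these data known. CPM values are counts scaled by the raw library total, and intervals cover counting error only.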

Additional observations from a re-analysis of the deposited data

Results flagged for a closer look

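The methanol response was tested for a difference between Y-48124 and 2 related strains, and these single genes had the largest differences among those called (log2, Y-48124 minus the other strain, edgeR). Against X-33 the response of Y-48124 was higher by 6.29 for GQ67_00116, 4.26 for GQ67_03911 and 3.94 for GQ67_00104. It was lower for YFL040W (GQ67_02261, -9.13), GQ67_03653 (-5.93) and GQ67_02419 (-5.93). In all, 460 genes differed. GQ67_00116 had 79.9 and 94.2 CPM in Y-48124 methanol A and B and 0.34 CPM in C, against 0.26, 1.46 and 56.4 CPM in X-33 methanol A, B and C. So 1 library of each strain lay with the other strain's pair. X-33 methanol C held only 70901 counts, where 3 counts would be 42.3 CPM, so its value rests on few reads. GQ67_03911 was called in 3 of the 12 fits that each leave out 1 library of the 2 strains, GQ67_00104 in 6, and the 3 lower genes in all 12.

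Against GS115 the response was higher by 6.73 for GQ67_02736, 6.18 for GQ67_04595 and 6.17 for GQ67_00926, and lower for GQ67_04563 (-5.67), GQ67_01284 (-5.65) and GQ67_04305 (-4.55). In all, 213 genes differed. The 3 higher genes had most of their counts in 1 library. GQ67_04595 had 9.79, 52.9 and 1137 CPM in Y-48124 methanol A, B and C, and GQ67_02736 had 387, 1387 and 8483 CPM. They were called in 4 to 6 of the 11 fits that each leave out 1 library of these 2 strains.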

How the results depend on the processing

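The direction of all 459 genes, which the main fit chose, was the same in every setting. The groups did not overlap for 211 of the 213 rises and all 246 falls, so leaving out a library could hardly reverse it. The count of calls did change with the setting. It ranged from 24 to 526 when 1 library was left out (24 without 48 h glycerol B, 67 without methanol B, 152 without 48 h glycerol D). It was 705 without 48 h glycerol D and methanol C together, 68 at an adjusted p under 0.01, 754 by DESeq2, 203 by limma on log2(TPM + 1), and 1003 with all libraries in the fit (1056 without D, 856 without C, 991 without both). TMM against relative log expression factors (462), no filter (452) and the fit of 9 libraries (537) stayed within 1.5-fold. With the replicate letter as a replicate block it was 581. The letters share no pairing in the labels, and same-lettered methanol and 48 h glycerol libraries had deviations correlated at -0.34 (A) and 0.04 (B).

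For 48 h against 24 h glycerol the count ranged from 360 to 1297 without 1 library and was 1490 with all libraries, and for methanol against 24 h it stayed within 1.5-fold of 1638. The difference from X-33 ranged from 124 to 1123 without 1 library and was 1346 without D and C together. That from GS115 ranged from 15 to 539, and was 98 without D and C, 328 by DESeq2, 395 with all libraries and 5 under the replicate block, where GQ67_04305 was still called (adjusted p = 0.0307) and GQ67_01284 and GQ67_04563 were not (0.0723 and 0.197). That from Y-11430 ranged from 0 to 3, and was 1 without D and C and 2 with all libraries. Adjacent pairs without D were 1 both higher and 4 both lower. The smaller fits have fewer samples, and the cause of the other shifts was not tested. The depth of replicate D, 1487529 counts, puts 3 counts at 2.02 CPM there.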
